A study of Saccharomyces cerevisiae with 10 samples.

Results

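The 7 genes described here, MMS21, EAF5, GTT3, NPP2, VAC8, UBC8 and GLC3, lie within a few genes of EDC3 (YEL015W) on the left arm of chromosome V of the yeast Saccharomyces cerevisiae. They were taken by name, and each had 1 probe set that the platform annotation assigns to that gene alone, out of 6504 such probe sets for 5656 genes. Of these 7 probe sets, 6 were bright enough to be tested, and MMS21 was not. The question was whether removal of EDC3 altered the RNA levels of the genes beside it.

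The arrays compared an edc3 deletion strain, which the sample labels call CFY25 and the design text calls SYY14, with the wild-type strain HFY114, described as isogenic with it. Neither strain had any treatment, and both grew in the rich medium YEPD at 30 °C. There were 5 arrays per strain, numbered 1 to 5, and arrays of the same number in both strains make up an experiment. The labels and design text do not say what replaced the EDC3 reading frame or whether the deletion strain is 1 clone.

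Edc3 promotes removal of the 5′ cap from mRNA in the cytoplasm. Yeast genes lie close together, so a deletion cassette at one locus can touch the promoter or the 3′ end of the next gene, and strain comparisons are commonly checked for this neighbouring-gene effect. In a systematic name, W and C give the strand and the number gives the place counted outward from the centromere. NPP2 (YEL016C) and EDC3 (YEL015W) are transcribed away from each other, so that their 5′ ends face one another. On the other side, VAC8 (YEL013W), UBC8 (YEL012W) and GLC3 (YEL011W) follow EDC3 on its own strand, with the open reading frame YEL014C between EDC3 and VAC8 on the opposite strand. The order is that of the RefSeq annotation of assembly R64, in which PMP2 also lies between EAF5 and GTT3. No coordinates are given, since the sources used here name no build for the array.

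The values are MAS5 signals, a linear brightness per probe set and array, with array medians of 58.2 to 66.8. EDC3 itself read 1.0, 1.8, 0.1, 2.3 and 1.7 on the deletion arrays of experiments 1 to 5, against 473.6, 480.5, 466.8, 465.4 and 456.8 on the wild-type arrays. The deletion arrays were therefore at the level of the 4 mouse control probe sets, which read 4.8 at most there. Taking the brightest of those controls as the floor of each deletion array, the deletion signal of EDC3 was lower by at least 222-fold. Without that floor the log2 difference was -8.97 (limma adjusted p = 1.73e-04). The arrays of experiments 4 and 5 were close to each other within a strain and stood apart from those of experiments 1 to 3, although the design text counts the 5 experiments as independent and the labels call the arrays biological replicates. P-values measure the spread between these arrays.

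None of the 6 tested neighbours passed the test. The reading frame YEL014C, between EDC3 and VAC8, had no probe set annotated to it alone, so it was not tested. In the limma fit over 6492 probe sets, 0 of the 6 tested neighbours were called at an adjusted p under 0.05, where 0.077% of all tested probe sets were called. With the experiment as a block 0 of 6 were called as well, against 0.447% of all tested probe sets. At an unadjusted p under 0.05 there was 1 of 6, NPP2, against 4.82% of all, and with the block there were 2 of 6, NPP2 and GLC3, against 23.1% of all. Of the 6, 4 had a higher mean in the deletion and 2 a lower one, with a median log2 difference of 0.16, against 0.00 over all tested probe sets. Without wild-type array 3, which set the VAC8 difference described further on, that median was 0.05. The strains overlapped for every tested neighbour, while 1.2% of all tested probe sets had strains that did not overlap. NPP2 and GLC3 were higher in the deletion in all 5 experiments, a pattern that 10.2% of all tested probe sets had.

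**Figure D1:**
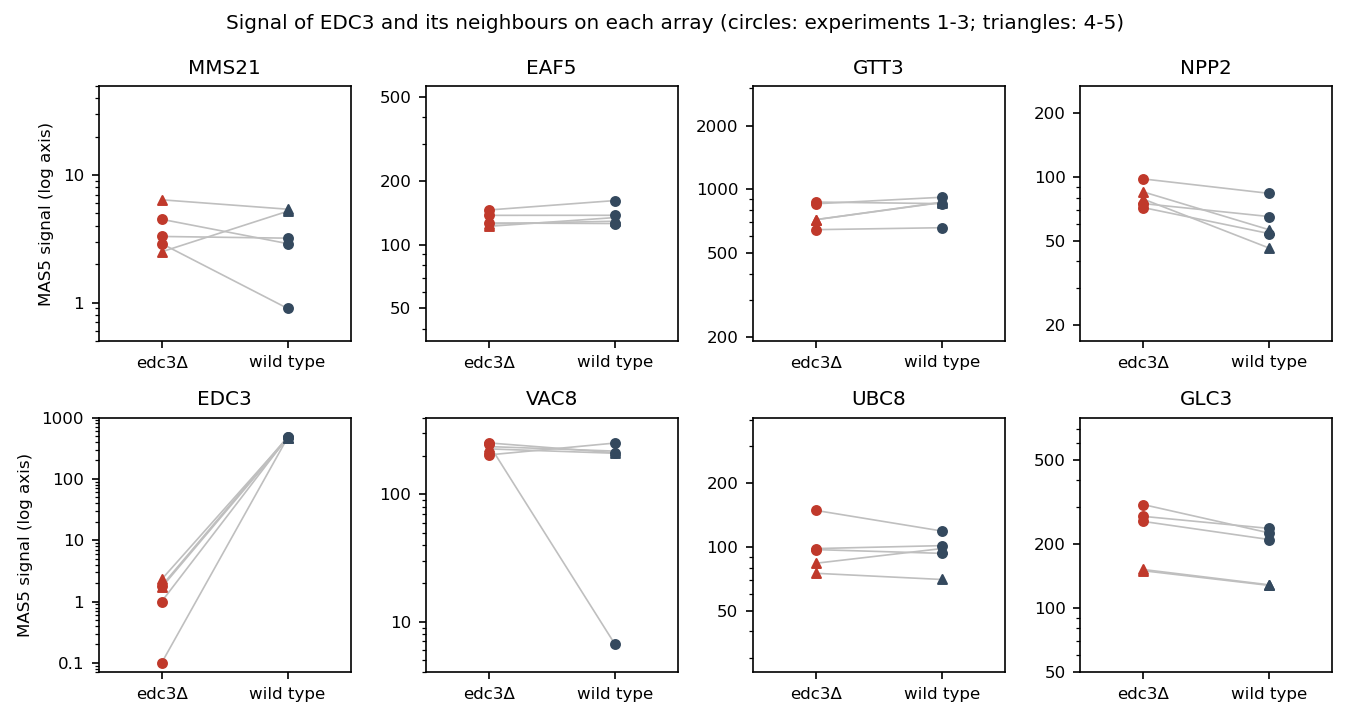
MAS5 signal (log axis, a scale per panel) of EDC3 and its 7 neighbours on each array, with edc3 deletion arrays in red on the left and wild-type arrays in dark blue on the right; grey lines join arrays of one experiment, circles are experiments 1 to 3 and triangles experiments 4 and 5. EDC3 falls to 2.3 or less in the deletion, and VAC8 has a single wild-type array at 6.7 while its other 9 arrays lie between 203.5 and 252.7.

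MMS21 (YEL019C) encodes a SUMO ligase of the Smc5-Smc6 complex, which works in DNA repair. Its probe set read 3.3, 4.5, 2.9, 6.4 and 2.5 on the deletion arrays and 3.2, 2.9, 0.9, 5.4 and 5.2 on the wild-type arrays of experiments 1 to 5. These signals overlap those of the mouse control probe sets, 0.3 to 4.8 on deletion arrays and 0.5 to 4.5 on wild-type arrays, so no MMS21 RNA could be told from background and no fold is given. With all probe sets kept, MMS21 was not among the 0.0755% of probe sets called (limma adjusted p = 0.9999).

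EAF5 (YEL018W), a subunit of the NuA4 histone acetyltransferase, was close to equal in the strains. Its signal was 137.7, 146.0, 126.7, 125.5 and 122.2 in the deletion and 137.8, 161.7, 126.0, 129.2 and 134.4 in wild type. The log2 difference was -0.06 ± 0.10 (SE, 95% interval -0.28 to 0.15, limma adjusted p = 0.999), which bounds the ratio of deletion to wild type between 0.825 and 1.11. A control probe set of the array whose own name carries YEL018w, and which was not part of the fit, read 84.5 to 132.8 in the deletion and 83.2 to 121.4 in wild type. Its log2 difference was -0.01, with the exact permutation test at p = 0.944, so that both readings of this gene lay within the spread between arrays.

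GTT3 (YEL017W) encodes a protein that has been linked to glutathione metabolism and whose role is not settled. It read 871.9, 645.8, 855.8, 719.9 and 720.5 in the deletion, against 857.2, 659.7, 918.8, 867.6 and 870.8 in wild type. Both strains were lowest in experiment 2, and the deletion was lower than wild type in 4 of 5 experiments. The log2 difference was -0.13 ± 0.12 (SE, 95% interval -0.38 to 0.12, limma adjusted p = 0.999). The ratios of deletion to wild type were 1.02, 0.979 and 0.931 in experiments 1 to 3 and 0.830 and 0.827 in experiments 4 and 5. In a limma fit of the interaction, with the experiment as a block, the strain differences of these sets of experiments differed by -0.24 ± 0.08 (SE), which did not pass over all tested probe sets (adjusted p = 0.216). In experiments 4 and 5 alone GTT3, NPP2 and GLC3 were called, 3 of the 6 neighbours, where 19.5% of all tested probe sets were called. With experiments 4 and 5 averaged as 1 replicate and no block, 0 of 6 were called, against 0.0462% of all.

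NPP2 (YEL016C) encodes a nucleotide pyrophosphatase and shares its upstream region with EDC3. Its signal was 71.9, 98.2, 75.1, 78.9 and 85.3 on the deletion arrays and 54.2, 83.9, 65.2, 46.3 and 56.5 on the wild-type arrays. The deletion array was the brighter one in every experiment, and the strains overlapped only through wild-type array 2, the brightest of its strain, which exceeded 3 of the 5 deletion arrays. The means were 81.9 ± 10.4 in the deletion and 61.2 ± 14.4 in wild type (SD, n = 5 each), a ratio of 1.36 on the log2 scale. The log2 difference of 0.44 ± 0.16 (SE, 95% interval 0.10 to 0.79) did not pass (limma adjusted p = 0.933). The exact two-sided permutation test over arrays, unadjusted and without keeping arrays of an experiment together, gave p = 0.0397. With the experiment as a block the standard error narrowed to 0.10 and the adjusted p of limma was 0.073, which misses the threshold too.

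The observed size of the NPP2 difference varied across experiments. The ratio of deletion to wild type was 1.33, 1.17 and 1.15 in experiments 1 to 3 and 1.70 and 1.51 in experiments 4 and 5. The interaction of strain with the set of experiments was 0.40 ± 0.14 on the log2 scale (SE), which did not pass (limma adjusted p = 0.235). In experiments 1 to 3 alone the mean log2 difference was 0.28, with a limma adjusted p of 0.999, and 0.451 with the block. With experiments 4 and 5 averaged as 1 replicate and the block kept, the difference was 0.38 ± 0.10 (SE, limma adjusted p = 0.227).

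**Figure D2:**
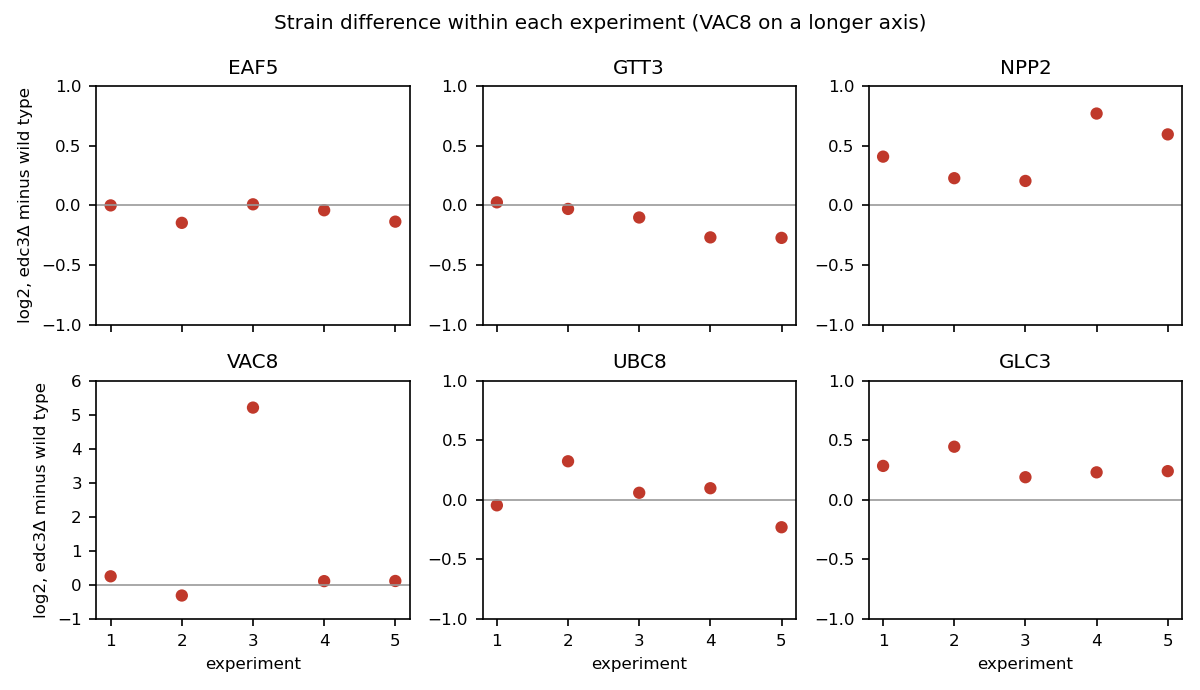
Difference of log2 signal, edc3 deletion minus wild type, within each of the 5 experiments for the 6 tested neighbours; points above the line at 0 mean a brighter deletion array, and VAC8 has a longer vertical axis. NPP2 lies above 0 in all experiments and is highest in 4 and 5, GLC3 lies between 0.19 and 0.45 throughout, and VAC8 has 1 point at 5.21 in experiment 3.

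VAC8 (YEL013W) encodes an armadillo-repeat protein of the vacuole membrane that serves vacuole inheritance, nucleus-vacuole junctions and the cytoplasm-to-vacuole targeting pathway. It had the widest strain difference among the neighbours, and 1 array made it. The deletion arrays read 252.7, 203.5, 247.3, 226.9 and 236.6, and the wild-type arrays read 211.7, 252.0, 6.7, 209.7 and 218.0. Wild-type array 3 was thus 33.9-fold under the median of the other 9, which stayed between 203.5 and 252.7 in both strains. Of the 6492 tested probe sets, 2 had a larger SD of log2 signal among the wild-type arrays than VAC8.

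Over all 10 arrays the log2 difference of VAC8 was 1.08 ± 0.84 (SE, 95% interval -0.76 to 2.91, limma adjusted p = 0.999). This is a 2.11-fold higher mean on the log2 scale, although the strains overlapped and the exact permutation test gave p = 0.206. Without wild-type array 3 the difference was 0.07 ± 0.10 (SE, 95% interval -0.16 to 0.29, limma adjusted p = 0.998), and the exact permutation test of 5 against 4 arrays gave p = 0.421. The means were then 233.4 ± 19.4 in the deletion (SD, n = 5) and 222.9 ± 19.8 in wild type (SD, n = 4), and the interval bounds the ratio of deletion to wild type between 0.895 and 1.22. Leaving out that array shrank the standard error 8.21-fold. With the block and without the array, the difference was 0.04 ± 0.10 (SE, limma adjusted p = 0.811). Among the other 4 experiments the deletion array was the brighter one in 3, with ratios of 1.19, 0.808, 1.08 and 1.09.

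The low VAC8 reading was not shared by EDC3 or the other tested neighbours. On wild-type array 3 the EDC3, NPP2 and UBC8 signals of 466.8, 65.2 and 93.4 lay inside the range of the other wild-type arrays, and GTT3 and GLC3, at 918.8 and 237.3, were the highest of their strain. EAF5, at 126.0, was the lowest of the wild-type arrays, with the next at 129.2. MMS21, which was not tested, was also lowest there, at 0.9 with the next at 2.9, among signals that overlap those of the mouse controls. A search was made over the tested probe sets for a single array lying at least 3 log2 units from the median of the other 9 while those 9 lay within 1 log2 unit of each other, limits chosen with the VAC8 values known. It found 2 probe sets, 0.0308% of those tested, VAC8 and PRP9, and both were low on wild-type array 3. PRP9 (YDL030W), a subunit of a splicing factor that acts with the U2 snRNP, read 7.5 there and 66.6 to 98.9 on the other 9 arrays.

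PRP9 also had the array pattern closest to that of VAC8, by the root mean square difference of centred log2 signals over the 10 arrays (0.51). MNT3, a mannosyltransferase, was next at 0.93, with 53.6 on wild-type array 3 and 195.6 to 253.3 elsewhere. GPA2, a G protein alpha subunit, followed at 0.96 with 42.0 against 141.1 to 163.3, and SYG1 at 0.97 with 135.5 against 446.5 to 759.6. All 4 share with VAC8 the low wild-type array 3, and these likenesses rest on that array.

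At a departure of at least 1.5 log2 units, wild-type array 3 had 8 probe sets lower and 0 higher than on the other arrays. The other 9 arrays had between 0 and 3 lower each, 6 in all, and 0 higher. At 1 log2 unit it had 15 lower and 0 higher, while the others had 0 to 11 lower and 0 to 7 higher. The reason for the low readings was not tested.

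**Figure D3:**
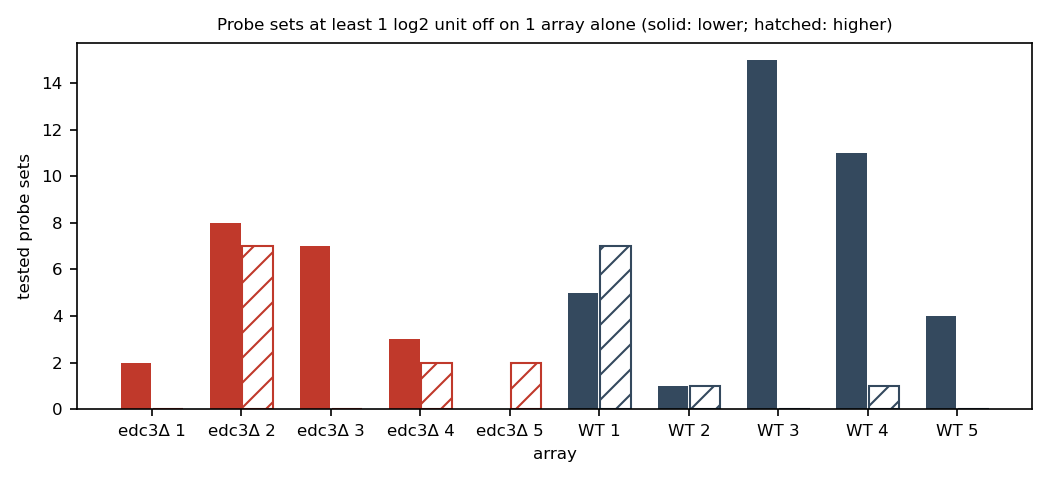
Number of tested probe sets for which one array alone lies at least 1 log2 unit below (solid bars) or above (hatched bars) the median of the other 9 arrays, those 9 lying within 1 log2 unit of each other; edc3 deletion arrays are red, on the left, and wild-type arrays dark blue. Wild-type array 3 has 15 below and 0 above, and wild-type array 4 has 11 below.

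UBC8 (YEL012W) encodes a ubiquitin-conjugating enzyme that works with the GID ligase in the glucose-induced breakdown of gluconeogenic enzymes. Its probe set carries the suffix s, which by Affymetrix's convention marks probes that can match more than 1 transcript. It read 98.4, 149.0, 97.3, 75.2 and 83.9 in the deletion and 101.6, 119.1, 93.4, 70.3 and 98.4 in wild type. The strains overlapped, at 75.2 to 149.0 in the deletion and 70.3 to 119.1 in wild type. The deletion was higher in 3 of 5 experiments. The log2 difference was 0.04 ± 0.19 (SE, 95% interval -0.37 to 0.45, limma adjusted p = 0.999), and the exact permutation test gave p = 0.857.

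GLC3 (YEL011W) encodes the glycogen branching enzyme. The GLC3 signal was 256.1, 307.7, 270.6, 149.8 and 151.8 in the deletion, against 210.3, 226.0, 237.3, 127.7 and 128.5 in wild type. In both strains the arrays of experiments 4 and 5 were the dimmest, so the spread within a strain came largely from the set of experiments. Within an experiment the deletion array was always the brighter one, by 1.22, 1.36, 1.14, 1.17 and 1.18-fold. The log2 difference was 0.28 ± 0.25 (SE, 95% interval -0.28 to 0.83, limma adjusted p = 0.999), and it ran from 0.15 without deletion array 2 to 0.41 without deletion array 4. With the experiment as a block its standard error was 0.06 (95% interval 0.15 to 0.41). The blocked limma fit gave an adjusted p of 0.0679, and 0.227 with experiments 4 and 5 averaged as 1 replicate, so GLC3 was not called either way.

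**Figure D4:**
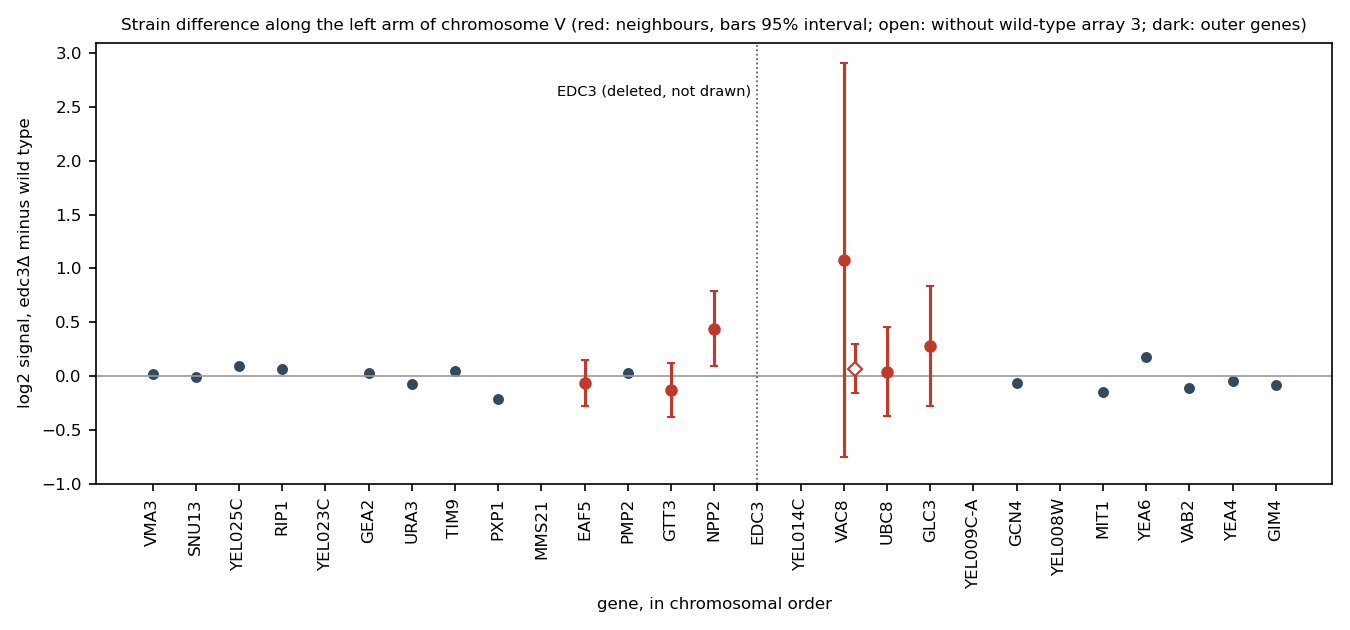
Difference of log2 signal, edc3 deletion minus wild type, for genes in chromosomal order along the left arm of chromosome V; red points are the 6 tested neighbours with 95% intervals from limma, the open diamond is VAC8 without wild-type array 3, and dark blue points are genes further out. EDC3 and genes without a tested probe set have no point. Apart from VAC8 with all arrays, every point lies between -0.21 and 0.44.

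Genes further out on the same arm gave a like picture. The list of outer genes held 18 names, those from VMA3 (YEL027W) to PXP1 (YEL020C), PMP2, and those beyond GLC3 as far as GIM4 (YEL003W). Of these, 16 had a probe set with 1 gene and 15 were tested, and the list's YEL010W and YEL008W had none. Genes with several probe sets were read from the brightest, and the GEA2 probe sets disagreed, with 3 tested at 0.03, 0.14 and 0.47. None of the 15 genes was called without or with the block, where 0.077% and 0.447% of all tested probe sets were. At an unadjusted p under 0.05 there were 0 without the block, against 4.82% of all, and 2 with it, against 23.1% of all. Their median log2 difference was -0.01, in a range of -0.21 to 0.18. PXP1, a peroxisomal protein next to MMS21, had the smallest p, with 81.8 ± 7.51 in the deletion and 94.8 ± 10.7 in wild type (SD, n = 5 each), or -0.21 ± 0.11 on the log2 scale (SE, limma adjusted p = 0.999). It was lower in the deletion in all 5 experiments and had an adjusted p of 0.112 with the block. MIT1, a regulator of pseudohyphal growth, differed by -0.15 ± 0.13 (SE), and YEA6, a mitochondrial NAD carrier, by 0.18 ± 0.15 (SE). URA3, which encodes orotidine-5′-phosphate decarboxylase, read 332 ± 24.6 in the deletion and 351 ± 21.8 in wild type (SD, n = 5 each), which is -0.08 ± 0.08 on the log2 scale (SE).

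Genes that act with each neighbour were looked up as well. No member of these lists was called without or with the block, where 0.077% and 0.447% of all tested probe sets were. With shares that low, the lack of calls says little about these genes, and their values are given as differences that did not pass. Their standard errors are from the fit without the block unless stated, so they include the spread between experiments. In experiments 4 and 5 alone, where 19.5% of all tested probe sets were called, 4 vacuole, 2 NuA4, 1 phosphatase, 1 GID and 1 glycogen gene were called, as was 1 outer gene. For MMS21, 9 tested genes of the Smc5-Smc6 complex and the SUMO pathway had a median log2 difference of -0.02. The Smc5-Smc6 subunit NSE3 differed by 0.29 ± 0.14, the SUMO ligase NFI1 by 0.30 ± 0.20 and SMC6 by -0.12 ± 0.10 (SE). For EAF5, 10 tested NuA4 genes had a median of -0.03, and its scaffold EAF1 differed by -0.11 ± 0.13, TRA1 by 0.09 ± 0.15 and SWC4 by -0.06 ± 0.11 (SE). For GTT3, 11 tested glutathione genes had a median of -0.04, and the glutathione transferase GTT2 differed by -0.16 ± 0.12 (SE). In the same list the peroxidases GPX1 and GPX2 differed by -0.38 ± 0.37 and -0.13 ± 0.14 (SE). With the block their standard errors were 0.15 and 0.13.

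For NPP2, 5 tested phosphatase genes had a median log2 difference of 0.02. PHM8, a phosphatase gene induced when phosphate is short, read 122.9 ± 14.5 in the deletion and 97.7 ± 9.58 in wild type (SD, n = 5 each). Its log2 difference was 0.33 ± 0.11 (SE, limma adjusted p = 0.931, and 0.0622 with the block), while the acid phosphatase genes PHO5 and PHO3 both differed by -0.11 (SE 0.11 and 0.26). For VAC8, 11 tested vacuole and autophagy genes had a median of -0.06. The strains did not overlap for ATG11, an adaptor of selective autophagy, as for 1.2% of all tested probe sets. ATG11 read 43.5 to 61.6 in the deletion and 62.4 to 75.4 in wild type. It differed by -0.35 ± 0.12 (SE, limma adjusted p = 0.931) and ATG13, a subunit of the Atg1 kinase complex whose protein binds Vac8, by 0.35 ± 0.13 (SE, limma adjusted p = 0.933). The vacuolar proton pump subunit VPH1 differed by -0.15 ± 0.08 (SE).

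For UBC8, 9 tested genes of the GID ligase and its substrates had a median log2 difference of -0.09. The GID substrate receptor VID24 differed by -0.30 ± 0.25, the GID subunit GID8 by 0.30 ± 0.28 and the ubiquitin protease UBP14 by 0.09 ± 0.12 (SE). For GLC3, 10 tested glycogen genes had a median of 0.08. The phosphatase GLC7 differed by 0.13 ± 0.10, the glycogenin GLG2 by -0.19 ± 0.17 and the glycogen phosphorylase GPH1 by 0.51 ± 0.51 (SE). With the block these standard errors were 0.05, 0.09 and 0.13, and GPH1 had a limma adjusted p of 0.0876.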

How the data were processed

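Biotinylated cRNA from 6 µg of total RNA of each of the 10 samples was hybridised to an Affymetrix Yeast Genome S98 array, per the labels. The deposited values are intensities, 1 MAS5 signal per probe set and array per the submitters' processing notes, on a linear scale. The scaling target is not stated there. Array means trimmed by 2% at each end spread over 0.0186%, so the authors' scaling was kept. The value table has no detection calls, and the number of arrays limits the precision. Instrument records (other values, deposited for 8 arrays) gave only chip lot and scan settings.

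Of 9335 probe sets, 60 controls were left out, and 6504 of the rest were paired with 1 gene, 328 with several and 2443 with none. All 6504 matched the RefSeq table of assembly R64 by gene identifier. Signals were converted to log2, with 156 signals of 0 raised to 0.1. The dimmest 30% by mean log2 signal, under a mean of 16.8, were left out, and 6492 were tested with limma 3.58.1 in R 4.3.3 (eBayes with trend, 5 arrays against 5, no block, two-sided), with Benjamini-Hochberg adjustment over all tested probe sets and a threshold of 0.05. Standard errors and intervals are limma's. The exact permutation test of 5 against 5 arrays cannot give a p below 0.00794. It splits the arrays freely and does not keep those of an experiment together, so it leaves out the pairing described next. Arrays of the same experiment, which share a letter in the labels, deviated together from their strain's mean (correlation over probe sets 0.475 to 0.713 in the 5 experiments), so the experiment was taken as pairing them.

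The members, gene lists and tests were chosen with earlier results of these data known. The rule for names took EDC3 and all neighbours, the 4 outer genes and the 3 genes per partner list of smallest p, any gene past the threshold, and the 4 probe sets most like VAC8. Smallest p was by the fit without the block, and the blocked fit orders some of the listed genes otherwise. In lists, a gene was read from its brightest probe set. Alternatives were the block, filters, an offset of 16, quantile normalization, other variance models, sets of experiments, the chip lot as a block and leaving out arrays. The scripts were tested on simulated data that held no experiment effect, so that test does not bear on the choice of block. The array platform's sequences were not used here.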

Additional observations from a re-analysis of the deposited data

Results flagged for a closer look

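Gap checks on the log2 signals of 5 arrays (the gap to the nearest array over the whole range, critical value 0.71) were run on 16 groups, for the 7 neighbours and EDC3 in both strains, of which chance marks about 1 in 20. They marked 3. VAC8 on wild-type array 3, at a signal of 6.7, had a gap of 0.949 of the range. GTT3 on wild-type array 2, at 659.7, had a gap of 0.791, and the deletion array of the same experiment was the lowest of its strain too, at 645.8. EDC3 on deletion array 3, at 0.1, had a gap of 0.734, among signals that were all at background.

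A probe set that the filter on dim probe sets had left out differed between the strains. Probe set 5733_at has no gene in the platform annotation, so what it measures is not named here, and it was looked at after its values were seen because its number falls between those of EDC3 (5732_at) and VAC8 (5734_at). It read 8.3, 8.8, 4.6, 5.4 and 4.8 on the deletion arrays and 17.1, 36.1, 18.2, 22.0 and 27.5 on the wild-type arrays of experiments 1 to 5. The strains did not overlap, a pattern that 1.2% of the tested probe sets, which leave this one out, had. The exact permutation test, which leaves out the pairing by experiment, gave p = 0.00794, the smallest it can give. Any probe set whose strains do not overlap gets that value, so the test adds nothing to the lack of overlap. With all 9275 probe sets kept, the log2 difference was -1.92 ± 0.28 (SE, limma adjusted p = 0.0348, and 0.0256 with the block), where 0.0755% of all probe sets were called. The wild-type signals exceeded those of the mouse controls, 4.5 at most on wild-type arrays. The deletion signals were close to the controls, which reached 4.8 on deletion arrays, although on 5 of 5 deletion arrays the probe set read above the brightest control of the same array, so the size of the difference is uncertain.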

How the results depend on the processing

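The 0 calls among the neighbours held under all alternatives except experiments 4 and 5 alone, where 3 of the 6 were called, GTT3 (log2 difference -0.27), NPP2 (0.68) and GLC3 (0.24). In that fit of nearly alike arrays 1263 of all probe sets (19.5%) were called. The count over the whole array was 5, and became 29 with the replicate block, 27 with the block and without wild-type array 3 (26 without both arrays of experiment 3), 18 with the block and no filter, 8 with the block and experiments 4 and 5 averaged, 10 with the chip lot as a block, 3 with eBayes without trend, 3 with experiments 4 and 5 averaged, and 2 without and 3 with the block in experiments 1 to 3 alone. It ran from 3 to 4 on leaving out single arrays and from 7 to 30 on leaving out an experiment in the blocked fit. The sign of UBC8 reversed in experiments 4 and 5 alone (-0.066), in the blocked fit without experiment 2 (-0.030), and without deletion array 2 or wild-type array 4, in a range of -0.11 to 0.14 on leaving out single arrays. The VAC8 difference kept its sign in all settings, ran from 0.07 to 1.37 on leaving out single arrays, and was never called. NPP2 alone among the neighbours passed 0.05 in the exact permutation test, unadjusted and without the pairing by experiment (p = 0.0397). Leaving out an experiment in the blocked fit gave an adjusted p of 0.0584 to 0.250 for NPP2 and 0.0597 to 0.235 for GLC3. The block changed no call among the neighbours. The blocked fit without wild-type array 3, the unfiltered blocked fit and the interaction were chosen after the data were seen. MMS21 was too dim to be measured.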
